A study of Mus musculus with 6 samples.

Results

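The genes described here are 10 genes of the Akt and mTOR signalling pathway: Akt1, Akt2, Akt1s1, Mtor, Rptor, Rictor, Mlst8, Tsc1, Tsc2 and Rheb. They were chosen by name from the 12134 genes in the deposited intron tables, and all 10 were found. Together they had 173 introns listed in any library and 162 listed in all 4 total RNA libraries, out of 68322 such introns in the series. Of the 162, 152 had enough reads to be tested and 10 did not. The cells were mouse embryonic stem cells of the E14 line on a 129/Ola background, grown with serum and leukaemia inhibitory factor. They were transfected with an siRNA against Son, a gene of a nuclear speckle protein that takes part in splicing, or with a control siRNA, and RNA was taken 24 hours later. There were 2 control and 2 knockdown samples of total RNA depleted of ribosomal RNA. Nanopore cDNA of polyadenylated RNA was read for 1 sample of each group. No other allele or agent is named for either group, and the control cells received the same lipid transfection. The labels do not say that replicates were separate cultures, so p-values measure only the spread between these samples, which may be technical.

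As background, the Akt kinases are switched on downstream of phosphatidylinositol 3-kinase and pass growth factor signals on. They inhibit the TSC complex of Tsc1 and Tsc2, which keeps the small GTPase Rheb in its inactive form, and active Rheb stimulates the mTOR kinase. mTOR acts in a complex with raptor (Rptor), mTORC1, which promotes protein synthesis and growth, and in a complex with rictor (Rictor), mTORC2, which phosphorylates Akt. In mouse embryonic stem cells mTOR activity is known for supporting proliferation.

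Son itself was at 283.0 and 314.1 CPM (spliced reads scaled to library size) in the controls and at 93.5 and 102.1 in the knockdown, a log2 fold change of −1.61 (SE 0.087, edgeR adjusted p = 3.7e-10). Split reads at 5′ junctions numbered 16012286 and 10640247 for the controls, and 14978479 and 10556187 for the knockdown. Of all junction reads, 5.38% and 6.11% were unsplit in the controls, against 6.0% and 6.85% after knockdown. Stem cell markers summed to 3848 to 4052 CPM over the 4 libraries, with 9 of 10 listed. Sox2 had no intron listed in any library, so its level could not be read here. Of those 9 only Tfcp2l1 passed the test. Markers of fibroblasts, endoderm, trophoblast, mesoderm and neural cells summed to 8.28 and 8.41 CPM in the controls, against 9.28 and 8.95 in the knockdown, with 4 of 16 listed. Those listed were the fibroblast gene Thy1, the endoderm gene Gata4, Eomes and Pax6, at 1.16 to 4.72 CPM in single libraries. The endoderm genes Gata6 and Pdgfra each had 1 intron listed in some but not all libraries. The fibroblast genes Col1a1, Col1a2, Postn and Lum and the endoderm gene Sox17 had no intron listed in any library. A gene without a listed intron adds nothing to these sums, which does not show that it was silent.

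Spliced RNA of 3 of the 10 genes was lower after Son knockdown: both Akt kinases and the tuberin gene Tsc2. Spliced RNA was taken as split reads at the 5′ junctions of a gene's introns, in CPM. By edgeR none of the 10 rose, also at an unadjusted p under 0.05 or with DESeq2. Over all 9474 genes tested, 6.76% fell and 1.96% rose. In 6 of the 10 genes (Akt1, Akt2, Akt1s1, Mlst8, Tsc1 and Tsc2) both knockdown libraries lay below both controls, which held for 24.6% of all genes. The median log2 fold change was −0.28 over the 10 genes and 0.01 over all genes. In these bulk samples fewer cells of a type and less RNA per cell cannot be told apart.

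**Figure D1:**
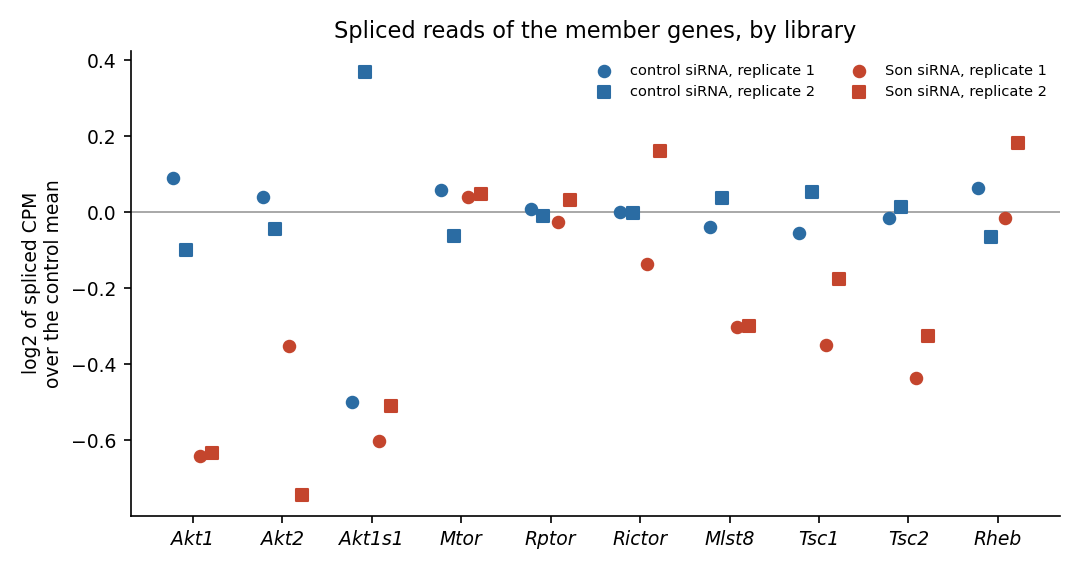
Spliced reads of each gene in each total RNA library, as the log2 of its CPM over the mean of the 2 controls (y axis), with controls in blue and Son siRNA in red. Akt1, Akt2, Akt1s1, Tsc1, Tsc2 and Mlst8 have both red points below both blue points, by a small gap for Tsc1 and the least for Akt1s1. Mtor, Rptor, Rictor and Rheb have red points among or around the blue ones.

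Akt1 (ENSMUSG00000001729), the ubiquitous Akt kinase, was at 46.5 and 40.8 CPM in the controls and at 28.0 and 28.1 in the knockdown. The groups did not overlap, and the knockdown libraries were almost equal. The means were 43.6 ± 4.04 and 28.0 ± 0.083 (SD, n = 2 each), and the log2 fold change was −0.64 (SE 0.13, edgeR adjusted p = 0.0019). Split reads were lower in both knockdown libraries at 5 of its 7 listed introns and higher in both at none. These introns are not separate checks, since they share transcripts and libraries, and the matching share over all introns is not reported here. Without control replicate 1 the value was −0.54 with an adjusted p of 0.11, and at the best covered intron alone it was −0.66 with an adjusted p of 0.089, so these settings end the call.

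Akt1 was also the least completely spliced of the 10 genes. The share of split reads among all junction reads of its introns, its splicing efficiency, was 0.756 and 0.708 in the controls, against 0.701 and 0.612 in the knockdown. Both knockdown libraries lay below both controls, though the gap between the groups was small beside the spread within the knockdown. The control value stood at the 6.65th percentile of the genes tested. The log2 odds ratio of unsplit against split reads, above 0 where the knockdown is less spliced, was 0.51 (95% interval −0.01 to 1.03, edgeR adjusted p = 0.38), which does not pass. Unsplit reads of Akt1 overlapped between the groups, at 29.9 and 33.6 CPM in the controls, against 23.8 and 35.5 in the knockdown.

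Akt2 (ENSMUSG00000004056), the Akt kinase known for its part in insulin signalling, was at 80.4 and 75.9 spliced CPM in the controls and at 61.3 and 46.7 in the knockdown. The groups did not overlap, and the second knockdown library was the lowest. Its log2 fold change was −0.53 (SE 0.12, edgeR adjusted p = 0.0058). It lost the call without control replicate 1 (−0.49, adjusted p = 0.083) and at the best covered intron alone (−0.48, adjusted p = 0.12), and it was −0.75 (adjusted p = 1.8e-09) without knockdown replicate 1 and −0.35 (adjusted p = 0.0075) without knockdown replicate 2. A processed copy, Akt2-ps, is annotated, and how reads common to it were assigned is not given in the sources used here.

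The splicing efficiency of Akt2 was 0.953 and 0.934 in the controls, against 0.931 and 0.886 in the knockdown. The highest knockdown value lay just under the lowest control. For the whole gene the log2 odds ratio was 0.73 (95% interval 0.19 to 1.27, edgeR adjusted p = 0.10), short of the threshold over all genes. Single libraries moved it both ways: it was 1.13 (adjusted p = 0.0082) without knockdown replicate 1, 0.34 (0.82) without knockdown replicate 2 and 0.46 (0.97) without control replicate 1. With 5 of 6 tested introns above 0 and a median of 0.87, Akt2 had the second highest median among the genes with more than 1 tested intron.

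Among introns with at least 50 junction reads in every library, the widest change in mean splicing efficiency lay at intron 13 of Akt1 and intron 10 of Akt2. Akt1 intron 13, 349 nt on the minus strand of chromosome 12 at 112621212 to 112621560 (GRCm39, per the processing notes), was spliced at 0.779 and 0.683 in the controls and at 0.676 and 0.394 in the knockdown. The second knockdown library was far below the rest, with 26 split and 40 unsplit reads. Akt2 intron 10, 96 nt on chromosome 7 at 27335593 to 27335688, was at 0.875 and 0.839 in the controls, against 0.701 and 0.697 in the knockdown, without overlap. Neither passed over all introns, with log2 odds ratios of 1.20 (SE 0.62, edgeR adjusted p = 0.53) and 1.38 (SE 0.51, adjusted p = 0.20). The exon junctions that their split reads carry, both in coding sequence and taken from GENCODE M21 transcripts, are shown 5′ to 3′ so that the spliced product can be seen, with the last 25 bases of the upstream exon in lower case and the first 25 of the downstream exon in capitals.
Akt1, intron 13 removed: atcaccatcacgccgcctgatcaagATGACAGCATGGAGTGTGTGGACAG
Akt2, intron 10 removed: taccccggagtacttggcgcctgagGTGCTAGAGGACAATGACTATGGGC

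Akt1s1 codes for a proline-rich substrate of Akt that binds raptor and inhibits mTORC1. It had a single intron listed in all 4 libraries, of 4 annotated, and few reads: 2.33 and 4.25 spliced CPM in the controls, against 2.17 and 2.31 in the knockdown. The knockdown values lay just below the lower control, and the controls were further apart than the lower control and the knockdown. This gave a log2 fold change of −0.51 (95% interval −1.19 to 0.17, edgeR adjusted p = 0.46). That intron, number 4 and 483 nt long, was spliced at 0.973 and 0.936 in the controls and at 0.853 and 0.857 in the knockdown. The groups were well apart, but the values rest on 8 unsplit reads in the controls and 19 in the knockdown. The log2 odds ratio of the gene was 1.76 (95% interval 0.07 to 3.44, adjusted p = 0.32), which does not pass.

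Tsc2 (ENSMUSG00000002496), which codes for tuberin, the GTPase-activating subunit that acts on Rheb, differed in both measures. It was at 488.4 and 499.1 spliced CPM in the controls and at 365.3 and 394.3 in the knockdown. The controls lay close together and both knockdown libraries were clearly lower. The means were 493.7 ± 7.55 and 379.8 ± 20.5 (SD, n = 2 each), a log2 fold change of −0.38 (SE 0.071, edgeR adjusted p = 0.0012). Split reads were lower in both knockdown libraries at 22 of its 27 introns and higher in both at none. These introns share the same transcripts and libraries, so they are not separate checks. The matching share over all introns is not reported here. The call was lost without control replicate 2 (−0.36, adjusted p = 0.067) and at the best covered intron alone (−0.26, adjusted p = 0.38).

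Its splicing efficiency was 0.968 and 0.960 in the controls, against 0.939 and 0.926 in the knockdown. The groups did not overlap, and the means were 0.964 ± 0.0061 and 0.932 ± 0.0097 (SD, n = 2 each). The log2 odds ratio was 0.97 (SE 0.22, edgeR adjusted p = 0.00041), so Tsc2 was less spliced in the knockdown. It was the only one of the 10 genes to pass in this test, and no gene of the 10 was more spliced. Over all 9370 genes tested, 6.98% were less spliced and 0.128% more spliced. Unsplit Tsc2 reads were at 31.9 and 41.7 CPM in the controls, against 47.4 and 63.2 in the knockdown, both above both controls, where its split reads were lower. In 6 of the 10 genes (Akt1, Akt2, Akt1s1, Rptor, Tsc1 and Tsc2) both knockdown libraries had a lower efficiency than both controls, against 27.1% of all genes. For Rptor and Tsc1 this was nearly a tie. The lower control and the higher knockdown value were 0.9414 and 0.9413 for Rptor, and 0.8849 and 0.8846 for Tsc1.

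The Tsc2 value depended on single libraries. It was 0.79 with an adjusted p of 0.28 without control replicate 1 and 0.81 with an adjusted p of 0.067 without knockdown replicate 2, and limma on log2 odds gave 0.97 with an adjusted p of 0.24. With split and unsplit reads each scaled to their own library totals, the median log2 odds ratio of all genes moved from 0.09 to −0.08, and Tsc2 stood at 0.81 (edgeR adjusted p = 2.9e-05).

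**Figure D2:**
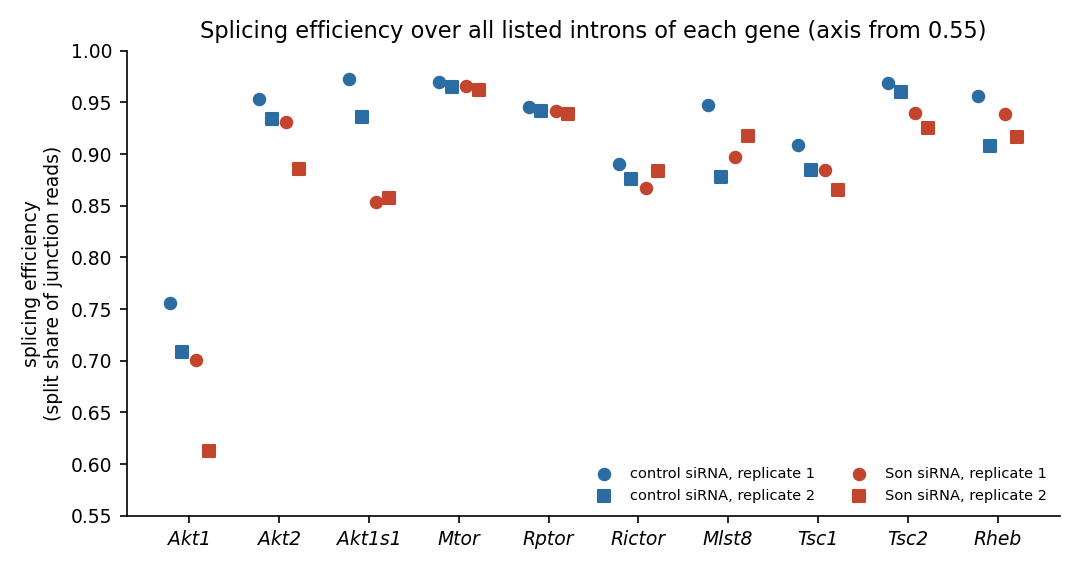
Splicing efficiency of each gene in each total RNA library (y axis, split share of the junction reads summed over its listed introns, drawn from 0.55), controls in blue and Son siRNA in red. Akt1 lies far below the other genes in every library, and the red points of Tsc2 and Akt1s1 lie below their blue points.

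Along Tsc2, 24 of 26 tested introns had a log2 odds ratio above 0, with a median of 1.01 against 0.12 over all 63309 tested introns. Both knockdown libraries were below both controls at 18 introns and above at none, against 24.3% and 13.1% of all tested introns. Intron 13 was the single intron of any of the 10 genes to pass over all introns. It is 228 nt long, on chromosome 17 at 24839806 to 24840033, and was spliced at 0.966 and 0.980 in the controls and at 0.916 and 0.905 in the knockdown. Its groups were well apart, with 27 unsplit and 929 split reads in the controls against 55 and 570 in the knockdown. The log2 odds ratio was 1.77 (SE 0.51, edgeR adjusted p = 0.043). This call just passed: every left-out library ended it, with adjusted p from 0.07 to 0.50, as did either junction alone (0.82 at the 5′ and 0.094 at the 3′ junction), DESeq2 (0.23), limma (0.38) and separate scaling (0.067).

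A further 11 Tsc2 introns, numbers 6, 14, 16, 21, 22, 24, 29, 32, 34, 35 and 36, had an unadjusted p under 0.05 in the same direction. The next lowest adjusted p was at intron 35, 152 nt long, at 0.940 and 0.919 in the controls, against 0.817 and 0.876 in the knockdown (log2 odds ratio 1.27 with an edgeR adjusted p of 0.068). The widest change in mean efficiency was at intron 16, 3266 nt on chromosome 17 at 24834574 to 24837839. It was at 0.934 and 0.873 in the controls and at 0.875 and 0.716 in the knockdown, so its groups overlapped (log2 odds ratio 1.24 with an adjusted p of 0.41). The change along the gene was not carried by intron 13: without it the log2 odds ratio of Tsc2 was 0.94 (edgeR adjusted p = 0.00071). It was 1.08 over introns of at most 300 nt (adjusted p = 0.0022) and 0.93 over longer introns (adjusted p = 0.0028), splits chosen after the data were seen. The coding exon junctions left by the removal of the called intron and of the one with the widest change are set side by side in the same notation.
Tsc2, intron 13 removed: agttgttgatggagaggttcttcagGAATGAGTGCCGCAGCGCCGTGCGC
Tsc2, intron 16 removed: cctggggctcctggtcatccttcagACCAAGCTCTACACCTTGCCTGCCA

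**Figure D3:**
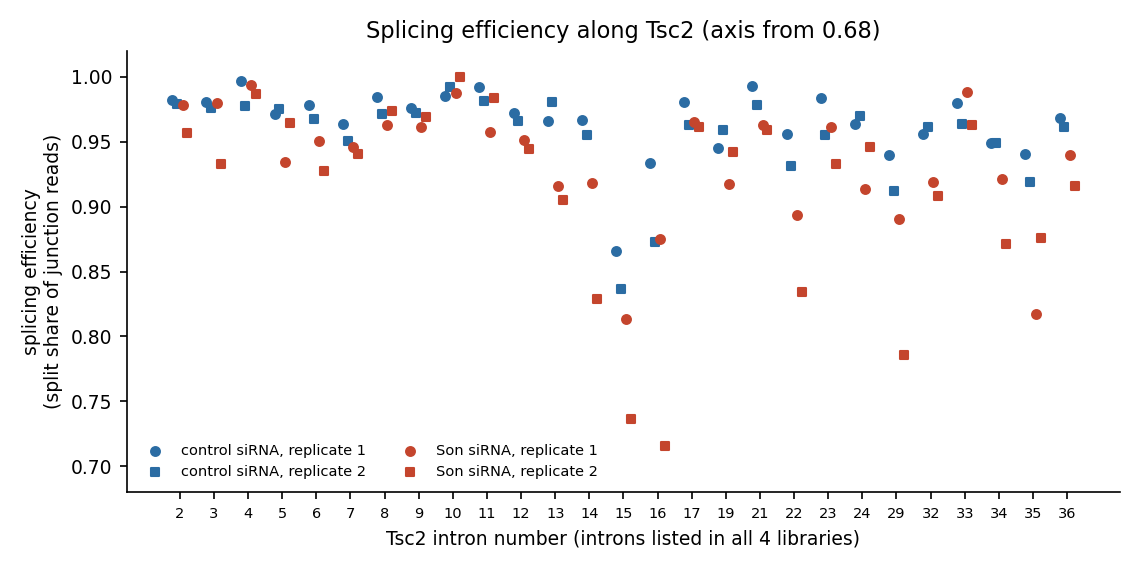
Splicing efficiency (y axis, split share of junction reads, drawn from 0.68) of the 27 Tsc2 introns listed in all 4 libraries, in order along the gene (x axis, intron number), controls in blue and Son siRNA in red. Red points lie below the blue ones over much of the gene, as at introns 13, 14, 22, 29 and 35, while introns 4, 10 and 33 show red points level with or above the blue.

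Tsc1, which codes for hamartin, the partner that stabilises tuberin, was at 56.1 and 60.4 spliced CPM in the controls and at 45.7 and 51.6 in the knockdown. The groups did not overlap. The log2 fold change of −0.26 (95% interval −0.48 to −0.04) had an edgeR adjusted p of 0.20, and the value was −0.35 (adjusted p = 0.024) without knockdown replicate 2 and −0.17 (0.32) without knockdown replicate 1. Its splicing efficiency was 0.908 and 0.885 in the controls, against 0.885 and 0.865 in the knockdown, where the lower control and the higher knockdown value were nearly the same. Its log2 odds ratio was 0.32 (SE 0.27, adjusted p = 0.79). Its intron with the widest change, number 14 of 232 nt, was at 0.908 and 0.821 in the controls, against 0.743 and 0.783 in the knockdown (log2 odds ratio 1.04 with an adjusted p of 0.48).

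Rheb, the GTPase that the TSC complex inactivates, was at 77.7 and 71.0 spliced CPM in the controls and at 73.6 and 84.3 in the knockdown. The groups overlapped, and the highest value was in the second knockdown library. Its log2 fold change was 0.08 (95% interval −0.12 to 0.29, edgeR adjusted p = 0.74). Its splicing efficiency was 0.956 and 0.908 in the controls, against 0.939 and 0.916 in the knockdown, with the knockdown values between the controls. Its log2 odds ratio was 0.17 (adjusted p = 0.94). At intron 6, 524 nt long, it was 0.955 and 0.940 in the controls, against 0.953 and 0.908 in the knockdown.

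Mtor, the kinase itself, was at 455.3 and 418.6 spliced CPM in the controls and at 449.4 and 451.6 in the knockdown. Both knockdown values lay between the controls. The log2 fold change was 0.04 (95% interval −0.10 to 0.18, edgeR adjusted p = 0.81). This interval covers only the spread between these samples, so it sets no limit on a fall between separate cultures. Its splicing efficiency was 0.970 and 0.965 in the controls, against 0.966 and 0.962 in the knockdown, and these values overlap (log2 odds ratio 0.13 with an adjusted p of 0.95). Of its 42 tested introns, 23 had a log2 odds ratio above 0. By edgeR none passed, with 1 in each direction at an unadjusted p under 0.05. The extremes ran from −2.04 to 1.98. Among introns with at least 50 junction reads in every library the widest change was at intron 49, 1083 nt long, where the efficiency was 0.948 and 0.963 in the controls, against 0.928 and 0.872 in the knockdown (log2 odds ratio 1.15 with an adjusted p of 0.63).

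Rptor, the raptor subunit that recruits mTORC1 substrates, was at 189.1 and 186.6 spliced CPM in the controls and at 184.5 and 192.2 in the knockdown. The knockdown values lay on either side of the controls. Its fitted log2 fold change was 0.00 (95% interval −0.15 to 0.16, edgeR adjusted p = 0.99). Its efficiency was 0.946 and 0.941 in the controls, against 0.941 and 0.939 in the knockdown, a very narrow range (log2 odds ratio 0.10 with an adjusted p of 0.98). Exactly 10 of its 20 tested introns lay above 0. By edgeR none passed, and 2 had an unadjusted p under 0.05 towards less splicing and 0 towards more. Both knockdown libraries were below both controls at 6 and above at 3, against 24.3% and 13.1% of all tested introns. Among introns with at least 50 junction reads in every library, the widest change was at intron 29 of 1597 nt, from 0.865 and 0.905 in the controls to 0.939 and 0.936 in the knockdown (log2 odds ratio −0.96 with an adjusted p of 0.71). Intron 24, with 46 reads in its lowest library, changed more and the other way, from 0.897 and 0.957 to 0.739 and 0.900 (log2 odds ratio 1.27 with an adjusted p of 0.77), and its groups overlapped. Introns 11 and 12 overlap exons of genes on the opposite strand, among them Rptoros, and intron 28 of Mtor overlaps Angptl7, so their values are uncertain unless reads were counted by strand, which is not given in the sources used here.

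Rictor, the subunit that defines mTORC2, was at 265.1 and 264.4 spliced CPM in the controls and at 241.1 and 296.1 in the knockdown. The knockdown libraries lay on opposite sides of the controls. The log2 fold change was 0.02 (95% interval −0.15 to 0.19, edgeR adjusted p = 0.94), and without knockdown replicate 1 it was 0.16 with an adjusted p of 0.049, against −0.13 (0.18) without knockdown replicate 2. Its efficiency was 0.890 and 0.875 in the controls, against 0.867 and 0.883 in the knockdown, with overlap (log2 odds ratio 0.10 with an adjusted p of 0.97). Of 32 tested introns 20 lay above 0, and by edgeR none passed or had an unadjusted p under 0.05. Under the same minimum of 50 reads the widest change was at intron 36, 1327 nt long, at 0.922 and 0.879 in the controls, against 0.714 and 0.848 in the knockdown (log2 odds ratio 1.32 with an adjusted p of 0.65).

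Mlst8, a subunit of both complexes, was at 10.7 and 11.3 spliced CPM in the controls and at 8.95 in each knockdown library. The groups did not overlap, but the values rest on 93 to 166 reads a library. The log2 fold change was −0.30 (95% interval −0.69 to 0.09, edgeR adjusted p = 0.45). Its efficiency was 0.948 and 0.878 in the controls, against 0.897 and 0.918 in the knockdown, with both knockdown values between the controls (log2 odds ratio 0.18 with an adjusted p of 0.98). Of its 3 introns, number 8 of 94 nt was at 0.902 and 0.935 in the controls and at 0.806 and 0.774 in the knockdown, without overlap (log2 odds ratio 1.58 with an adjusted p of 0.58). The other two had negative log2 odds ratios.

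Over all 10 genes, 100 of 152 tested introns (65.8%) had a log2 odds ratio above 0, with a median of 0.34. Over all tested introns the share was 58.0% and the median 0.12. By edgeR 1 intron was called less spliced and 0 more spliced, where 1.71% and 0.0442% of all introns were. At an unadjusted p under 0.05, 19 were less and 1 more spliced, against 8.11% and 1.61% of all introns. Both knockdown libraries were below both controls at 53 introns and above at 13, against 24.3% and 13.1%. Tsc2 held 12 of the 19 and 18 of the 53. Without Tsc2, 76 of 126 introns lay above 0, the median was 0.19, 7 had an unadjusted p under 0.05 towards less splicing, and the knockdown was below the controls at 35 (27.8%), near the share over all introns.

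**Figure D4:**
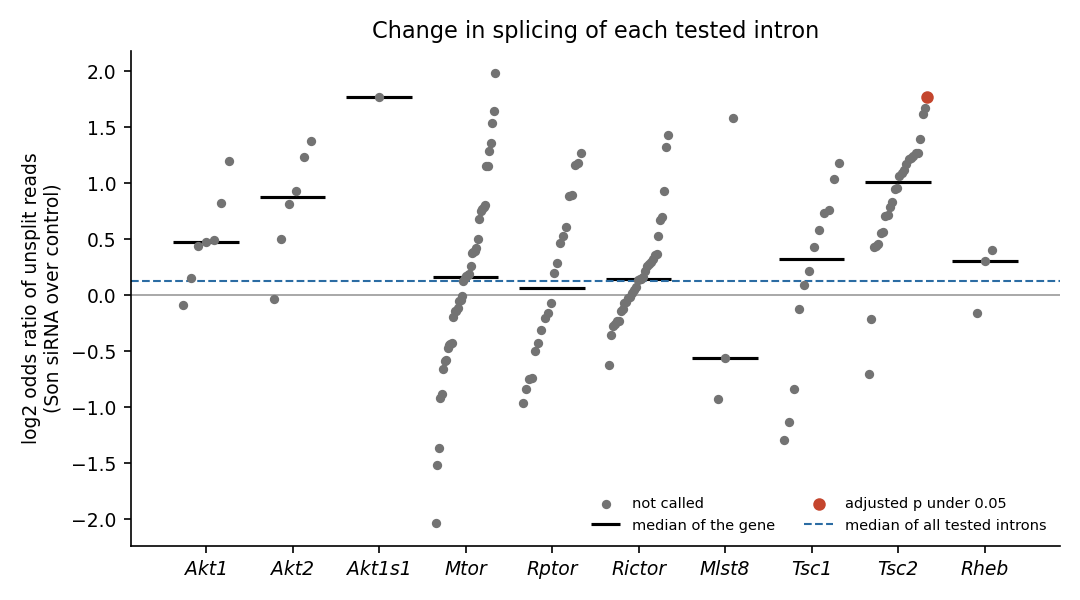
Each tested intron of the 10 genes by its log2 odds ratio of unsplit reads, Son siRNA over control (y axis), with black bars for the median of each gene and a dashed line for the median of all tested introns (0.12). The Tsc2 introns sit higher than the dashed line except for 2, with intron 13 in red as the only one called, while Mtor, Rptor and Rictor introns spread to both sides of 0.

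Intron length sets the background for these counts. Of all tested introns, calls in either direction made up 8.30% at 100 nt or less, 5.54% at up to 300 nt, 1.08% at up to 1000 nt and 0.259% above that. The 10 genes had 11, 20, 64 and 57 tested introns in these classes, and the single call fell in the class of up to 300 nt. Their median length was 750.5 nt, shorter than the 1128 nt over all tested introns. Tsc2 had none of 100 nt or less. Its medians were 1.14 at up to 300 nt (6 introns), 0.87 at up to 1000 nt (14 introns) and 1.23 above 1000 nt (6 introns), where all tested introns had 0.40, 0.12 and 0.04. The 11 short introns of the other genes had a median of 0.05, against 0.48 over all introns of that length.

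The listed introns do not cover these genes fully. The reference transcript of each gene holds 233 introns in sum, of which 162 were listed in all 4 libraries: 7 of 13 for Akt1, 7 of 13 for Akt2, 47 of 57 for Mtor and 27 of 39 for Tsc2, for example. Of the 65 not listed in any library, 62 overlap an exon of another annotated model, and none of the listed introns overlaps an exon of its own gene. Among the 11 introns named for a call or for the widest change at that read minimum, 9 followed an exon ending in AG and 5 preceded an exon starting with G. Over 62990 tested introns with a matched transcript these shares were 57.56% and 49.29%.

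Levels between genes were compared per listed junction, since genes with more introns collect more split reads. In the controls Rheb (18.6 ± 1.17 CPM per junction, SD, n = 2) and Tsc2 (18.3 ± 0.280) were highest and did not differ beyond their spread. Akt2 followed at 11.2 ± 0.457. Rptor at 9.39 ± 0.088 and Mtor at 9.30 ± 0.552 could not be ordered, and Rictor came next at 8.02 ± 0.016. Akt1 was at 6.23 ± 0.577, Tsc1 at 4.48 ± 0.235, and Mlst8 (3.67 ± 0.135) and Akt1s1 (3.29 ± 1.36) were lowest and overlapped. In the knockdown Tsc2 stood at 14.1 ± 0.759, Akt2 at 7.71 ± 1.47 and Akt1 at 4.01 ± 0.012, so Akt2 lay below the Mtor and Rptor values of 9.59 ± 0.034 and 9.42 ± 0.272. The order depends on the measure and on which introns are listed. By long reads in the control library Rheb was at 109.4 CPM, Tsc1 at 22.1 and Tsc2 at 19.8.

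Among the long reads, 774 of 3080426 in the control library came from these genes, and 431 of 1874851 after knockdown. With 1 library a group these are descriptions with no replicate check, and intervals cover counting error only. Both long-read descriptions name the same knockdown starting material, so the relation of the control to the total RNA samples is unclear. Son had 217 reads in the library labelled control and 37 in the other. Akt1s1 had 45 and 12 reads, 14.6 and 6.40 CPM (log2 ratio −1.15, exact 95% interval −2.24 to −0.25), and was the only one of the genes whose interval did not include 0. A log2 ratio of −1 or lower was seen in 4.16% of 9611 genes with at least 20 reads, and one of 1 or higher in 2.21%.

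Tsc1 was at 22.1 and 13.9 CPM (68 and 26 reads, log2 ratio −0.65), with an interval reaching 0. Akt1 was at 6.49 and 4.27 CPM (20 and 8 reads), Akt2 at 26.0 and 20.8 (80 and 39 reads) and Tsc2 at 19.8 and 16.0 (61 and 30 reads). These values of the genes called in total RNA were lower in the knockdown library, with log2 ratios of −0.55, −0.31 and −0.30, but their intervals include 0. Rptor and Rictor had log2 ratios of −0.44 and −0.42, Mlst8 of −0.07, and Mtor and Rheb of 0.14 and 0.15. In all 8 of 10 were below 0, with a median of −0.36 against −0.01 over all genes. The share of all genes below 0 is not reported here.

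**Figure D5:**
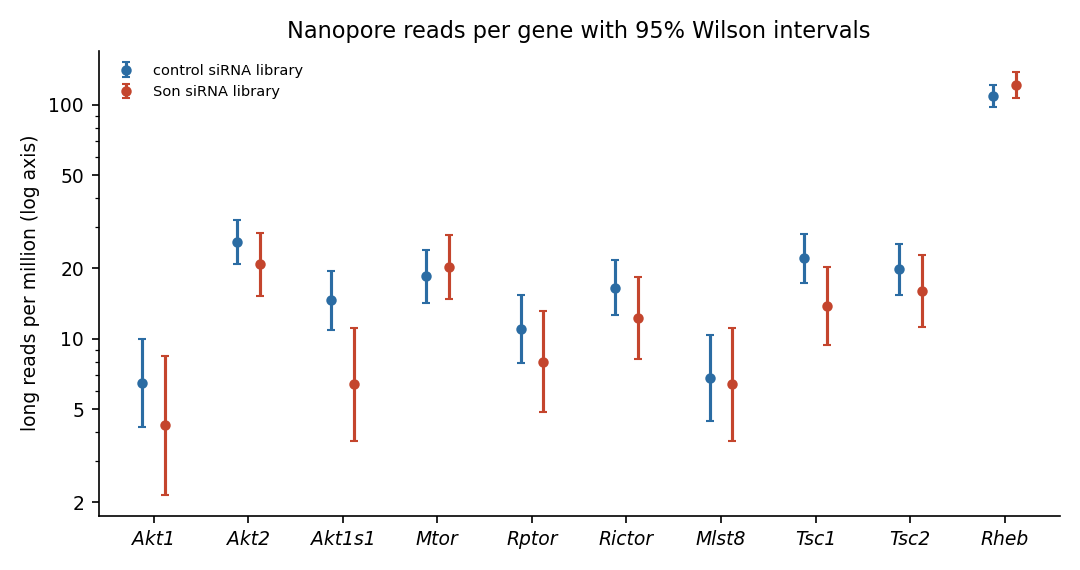
CPM of Nanopore reads of each gene in the control (blue) and Son siRNA (red) library (y axis, log scale), with 95% Wilson intervals for counting error. The intervals of the libraries overlap for all genes but by little for Akt1s1, and Rheb is far above the others in both.

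Among transcript models, Rheb-201 had 333 and 224 reads, Akt2-205 had 50 and 25, and Mtor-202 had 37 and 27. Their log2 ratios were 0.15, −0.27 and 0.27, none of them a 2-fold change. The leading model of Tsc1, Tsc1-201, had 31 and 5 reads (log2 ratio −1.80), the only one of 10 models with at least 20 reads to be 2-fold lower, where 5.8% of all models were. With a pseudocount of 5 reads its log2 ratio was −1.13. Tsc1-202 had 11 and 8 reads, or 3.57 and 4.27 CPM. The leading models of the remaining genes were Rictor-201 (31 and 13 reads), Tsc2-201 (20 and 9), Rptor-201 (15 and 3), and Akt1-201 (13 and 7), Akt1s1-201 (13 and 3) and Mlst8-201 (13 and 5). Models annotated as retained introns took 56 of the 774 reads (7.24%) and 31 of the 431 (7.19%), and 6.24% and 6.64% over all annotated reads. For Akt1s1 they took 5 of 45 reads (11.1%, Wilson 95% interval 4.84 to 23.5%) and 6 of 12 (50%, interval 25.4 to 74.6%), an example chosen after its values were seen. For Rictor they took 20 of 51 (39.2%) and 10 of 23 (43.5%). For Akt1 they took 6 of 20 (30%) and 0 of 8 (Wilson 95% interval 0 to 32.4%).

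A list of 81 other genes of the pathway was read with the same fits. Of 73 tested for spliced reads, 1 rose and 6 fell, and of 72 tested for splicing, 9 were less and 1 was more spliced. Over all genes 1.96% rose, 6.76% fell, 6.98% were less and 0.128% more spliced. The falls in the list lay near that background, while the share called less spliced lay above it. Whether the list differs as a set was not tested. The medians were 0.04 for the log2 fold change and 0.03 for the log2 odds ratio, against 0.01 and 0.09 over all genes. Upstream of Akt, Pik3r2, a regulatory subunit of phosphatidylinositol 3-kinase, fell (−0.44) and was less spliced (log2 odds ratio 1.02). Inppl1, a lipid phosphatase, also fell (−0.44) and was less spliced (1.36).

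Among genes of amino acid sensing, Nprl2, a subunit of the complex that inactivates Rag GTPases, fell and was less spliced (−0.42 and 1.57, edgeR adjusted p = 0.038 and 3.6e-05), with efficiencies of 0.959 and 0.941 in the controls, against 0.889 and 0.840 in the knockdown. Wdr24, Itfg2 and Castor1 were also less spliced, with log2 odds ratios of 2.07, 1.26 and 1.03. Wdr24 went from 0.899 and 0.833 to 0.678 and 0.537, the lowest mean of these. Telo2, an assembly factor of the mTOR complexes, fell by 0.54 on the log2 scale.

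Among substrates, Rps6kb2, a kinase of ribosomal proteins that mTORC1 activates, fell most, from 40.8 and 43.5 CPM in the controls to 24.0 and 25.5 in the knockdown. The groups were far apart (log2 fold change −0.77, edgeR adjusted p = 0.00039). It was also less spliced (1.40, adjusted p = 0.00031). Ulk1, the autophagy kinase that mTORC1 restrains, fell (−0.34) and was less spliced (0.65). Gsk3a, a kinase inhibited by Akt, rose (0.29), and Rps6, a ribosomal protein, was more spliced (−1.07) on a single listed intron.

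The genes whose spliced reads followed Tsc2 most closely over the 4 libraries, by Euclidean distance between log2 CPM centred on each gene's mean, were Slc28a1 (0.029), Tmem63b (0.030) and Sept1 (0.034), out of 7387 with a mean of at least 100 reads. Tmem63b was at 207.6 and 212.4 CPM in the controls, against 153.1 and 170.2 in the knockdown. Like Tsc2, each of these genes was also less spliced. Their log2 odds ratios were 0.99, 0.90 and 1.17 (edgeR adjusted p = 0.0054, 0.0023 and 1.2e-05). They were picked by their split reads, which also enter this ratio.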

How the data were processed

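Per the labels, the authors deposited SPLICE-q tables that give each intron, junction by junction, counts of split and unsplit reads, with a fraction from 0 to 1 as its splicing efficiency, and counts of long reads per transcript. In the deposited tables the fraction equals the split share with the 2 junctions summed, and no listed junction has under 10 reads. The submitters' processing notes name GRCm39, SAMtools and minimap2 without versions; SPLICE-q settings and use of strand are not given in the sources used here. Intron positions are those of the deposited tables. Names and exon sequences come from GENCODE M21 (GRCm38), in which 99.8% of 268490 transcript introns had the same length but 2.28% the same position.

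Introns listed in all 4 libraries were used once each, and 681 under more than 1 gene were left out of gene sums. Splicing was tested with edgeR 4.0.16 (R 4.3.3) quasi-likelihood on split and unsplit columns with a term per library, over introns with at least 10 split and 10 unsplit reads. Spliced reads used TMM and edgeR's expression filter, and CPM divide counts by the TMM-scaled library size. A split read counts at both junctions, which overstates separate reads. P-values were adjusted by Benjamini-Hochberg over all features, threshold 0.05. The 95% intervals of fitted values take the estimate and its SE as normal. With 2 against 2 an exact permutation test cannot go below 0.33. To each long-read count 0.5 was added as a pseudocount, and ratios needed 20 reads over both libraries. Alternatives used DESeq2 1.42.0 and limma 3.58.1, other filters and scalings, and left-out libraries. All 10 genes are named with their widest-changing intron of at least 50 junction reads in every library, called introns, leading transcripts and those with at least 50 reads, and the pathway genes called. Not every pathway gene called is reported here. The genes, lists and rules were chosen with earlier results of these data known.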

Additional observations from a re-analysis of the deposited data

How the results depend on the processing

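For the single values named, 332 alternatives kept direction and call, 22 changed the sign of a value that passed in neither fit, 18 lost a call and 4 gained one. None of the called values reversed. The count of 1 called intron among the 10 genes was 0 at the 5′ junction alone, 0 at the 3′ junction alone, 0 with DESeq2, 0 with limma and 0 with separate scaling, where 18, 10, 12, 14 and 16 introns had an unadjusted p under 0.05, and it ranged from 0 to 3 over the left-out libraries, all of them Tsc2 introns. The count of 1 gene with changed splicing efficiency was 0 with limma, where 2 genes had an unadjusted p under 0.05, and ranged from 0 to 2 without single libraries. The 3 genes with lower spliced reads were 0 at the best covered intron of each gene, with 3 at an unadjusted p under 0.05, and 1 to 4 without single libraries. Separate scaling of split and unsplit reads took the median of all introns from 0.12 to −0.04 (log2 odds ratio), and the uncalled values of Mtor, Rptor and Rictor to −0.03, −0.06 and −0.05. By its construction, this scaling takes out a shift in the unsplit share that is common to a whole library. The cause of the other changes was not tested. With a minimum of 50 long reads, 0 transcript models were 2-fold lower instead of 1, because Tsc1-201 has fewer.

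The labels link replicates across groups only by number. Same-numbered deviations, correlated over features, gave 0.017 for spliced reads and 0.0085 for intron odds. This measure cannot show a shift common to all features. In both groups replicate 2 had fewer split reads than replicate 1 and a higher unsplit share. That share was 6.11% against 5.38% in the controls and 6.85% against 6.0% in the knockdown. With a replicate block, 4 introns were called (Tsc2 introns 13, 21, 22 and 35), 2 genes in splicing efficiency (Tsc2, and Akt2 with an edgeR adjusted p of 0.0071) and 3 genes in spliced reads. Depth limits Akt1s1 and Mlst8 in total RNA and most transcript models in long reads.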
